A study of Mus musculus with 22 samples.

Results

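The matrix metalloproteinases (Mmp genes), the ADAMTS proteases (Adamts genes) and the tissue inhibitors of metalloproteinases (Timp genes) were followed across mouse mammary cells grown in culture, grafted into mice and taken from cancers. The members were chosen by symbol alone, as Mmp with a number and an optional a or b, Adamts with a number, or Timp with a number. This gave 46 genes (23 Mmp, 19 Adamts and 4 Timp) of 23993 symbols in a table of 16 libraries, and the same 46 among 23490 symbols in a second table of 6 libraries. The values are FPKM, fragment counts scaled by transcript length and library total, so levels of different genes can be set side by side per length. The labels abbreviate the culture conditions as CRC and EpiC, and the title of the study sets mammary-optimized culture against conditional reprogramming.

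The first table held 7 CRC allografts, 3 EpiC allografts, 3 CRC cultures and 3 EpiC cultures. All were labelled as coming from nulliparous females with C57Bl/6 cells, MMTV-Cre and 1 intact copy of Trp53 (written p53-/+ or Trp53-/+), so no group was wild type for Trp53. MMTV is a viral promoter used to drive expression in mammary epithelium. Libraries called CYP19A1 here also carried a tetracycline-inducible human aromatase transgene (Tet-op-CYP19A1 with MMTV-rtTA). Brca1het libraries carried 1 conditional allele of the DNA repair gene Brca1 (Brca1fl 11/WT), and Brca1hom libraries carried both (Brca1fl11/fl11). Each culture condition had 1 culture of each of these 3 genotypes, and culture values below are given in the order CYP19A1, Brca1het, Brca1hom. CRC allograft 6C was CYP19A1, CRC allografts 10B, 10C and 11C were Brca1het, and CRC allografts 1, 2 and 12 were Brca1hom. EpiC allograft 7B was CYP19A1 and EpiC allografts 4C and 5A were Brca1het, the order in which their values are given, and no EpiC allograft was Brca1hom. Allografts grew in the mammary glands of NU (NCr)-Foxn1nu hosts, athymic mice that lack T cells but keep macrophages, fibroblasts and vessels of their own, and the deposited values do not separate host from graft RNA. The second table held CRC cultures, EpiC cultures and the cancers they were made from, 2 libraries each and all Brca1het. Their titles also carry p53mp, the wording that the titles of the first table use for 1 intact copy of Trp53. Ages were not given. The labels leave unsaid which libraries share an animal, and the p-values rest on variation among libraries that may be partly technical.

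Matrix metalloproteinases are zinc enzymes, secreted or held at the cell surface, that cleave collagens, proteoglycans and other extracellular proteins after their propeptide has been removed. ADAMTS proteases are secreted relatives that trim procollagens or cut large proteoglycans such as aggrecan and versican. Timp proteins bind the active sites of these enzymes, and in mammary gland and breast tumours the stroma is known as a major source of many of these transcripts.

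The deposited tables hold no read counts, so sequencing depth is unknown and no counting interval can be given. No library was identical to another among 120 pairs in the first table and 15 in the second. Brca1, measured over the whole gene including exons outside the deleted part and so no check of the deletion, had a median of 3.21 FPKM in 5 Brca1hom libraries against 3.44 FPKM in 7 Brca1het libraries of the first table. The Brca1hom EpiC culture stood apart, with 8 epithelial markers (Epcam, Cdh1, Krt8, Krt18, Krt5, Krt14, Cldn4, Cldn7) summing to 4.21 FPKM, against 1663 and 1682 FPKM in the other EpiC cultures, and counts that depend on it are also given without it. In the second table a 0 may be a failed estimate, since 6 of 3508 genes with 10 FPKM or more in each of the 16 libraries had a 0 in some of its 6.

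Of the 23 Mmp genes, 10 stand in 1 run on chromosome 9 of the mouse, with 3 other annotated entries between them, in the order Mmp13, Mmp12, Mmp1b, Mmp3, Mmp1a, Mmp10, Mmp8, Mmp27, Mmp20 and Mmp7. RefSeq promoters (250 bases before to 50 after a start, GRCm38.p6, not the mm9 build of the deposited values) were available for 32 of the 46 members, among them all 10 genes of the run, and these 32 members had 35 listed starts. The 3 motifs, searched on both strands, cannot overlap one another and were picked with the sequences in view, and a match describes letters and not a bound site. The AP-1 letters TGAGTCA stood in a promoter of 7 of the 10 genes of the run and of 0 of the 22 other members, against 5.95% of 27025 genes with a promoter. Counting only the first listed start of each gene, the run had 6 of 10 and the background was 5.17%. The letters TATAAA stood in 9 of the 10 and in 2 of the 22 (15.7% of genes), and the letters GGGCGG of a GC box in 0 of the 10 and 18 of the 22 (38.2% of genes). The 100 bases before each start that holds the AP-1 letters are printed here. Mmp3, Mmp10, Mmp12 and Mmp13 of this run varied widely among libraries of 1 group, as described below, and so did Mmp23 and Adamts5 outside the run. A part of the letters in these values was not tested. Capitals mark TGAGTCA or its reverse complement, and TATAAA where it lies within the same stretch. Mmp12 and Mmp7 each had 2 listed starts, and only the start with the AP-1 letters is shown for them. Mmp1a and Mmp1b are paralogues, and how reads that fit both were assigned is not given in the sources used here, so their values below are uncertain.
Mmp13, chr9:7272414-7272513, plus strand: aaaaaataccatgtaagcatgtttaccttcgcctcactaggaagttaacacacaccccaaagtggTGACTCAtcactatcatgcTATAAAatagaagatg
Mmp12, chr9:7347274-7347373, plus strand: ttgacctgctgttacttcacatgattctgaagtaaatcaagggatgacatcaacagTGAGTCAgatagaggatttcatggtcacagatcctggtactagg
Mmp1b, chr9:7388027-7388126, minus strand: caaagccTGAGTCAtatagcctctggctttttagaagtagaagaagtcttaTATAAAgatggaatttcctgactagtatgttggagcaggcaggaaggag
Mmp3, chr9:7445722-7445821, plus strand: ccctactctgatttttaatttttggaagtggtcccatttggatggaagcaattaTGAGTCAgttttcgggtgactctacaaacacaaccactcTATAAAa
Mmp1a, chr9:7464041-7464140, plus strand: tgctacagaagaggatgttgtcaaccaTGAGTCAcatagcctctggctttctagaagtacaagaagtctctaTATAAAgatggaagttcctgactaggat
Mmp10, chr9:7502242-7502341, plus strand: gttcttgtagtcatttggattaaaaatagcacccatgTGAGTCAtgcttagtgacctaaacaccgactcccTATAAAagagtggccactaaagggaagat
Mmp7, chr9:7691990-7692089, plus strand: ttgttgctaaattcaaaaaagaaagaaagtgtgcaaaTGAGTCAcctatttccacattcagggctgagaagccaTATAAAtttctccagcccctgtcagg

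The members spanned a wide range of levels. Among the 16 libraries, 36 of the 46 reached 1 FPKM in at least 1 library and 25 reached 5 FPKM. By group, 5 FPKM was reached by 19 members in CRC allografts, 18 in EpiC allografts, 6 in CRC cultures and 16 in EpiC cultures. Timp1, Timp2 and Mmp14 were high in every group, with Mmp14 never below 59.8 FPKM in any of the 16 libraries. The 10 members that stayed below 1 FPKM throughout were 5 Adamts genes, Mmp20, Mmp21, Mmp24, Mmp25 and Timp4. The 11 members that peaked between 1 and 5 FPKM were Adamts3, Adamts6, Adamts10, Adamts16, Mmp1a, Mmp1b, Mmp7, Mmp16, Mmp17, Mmp27 and Mmp28.

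**Figure D1:**
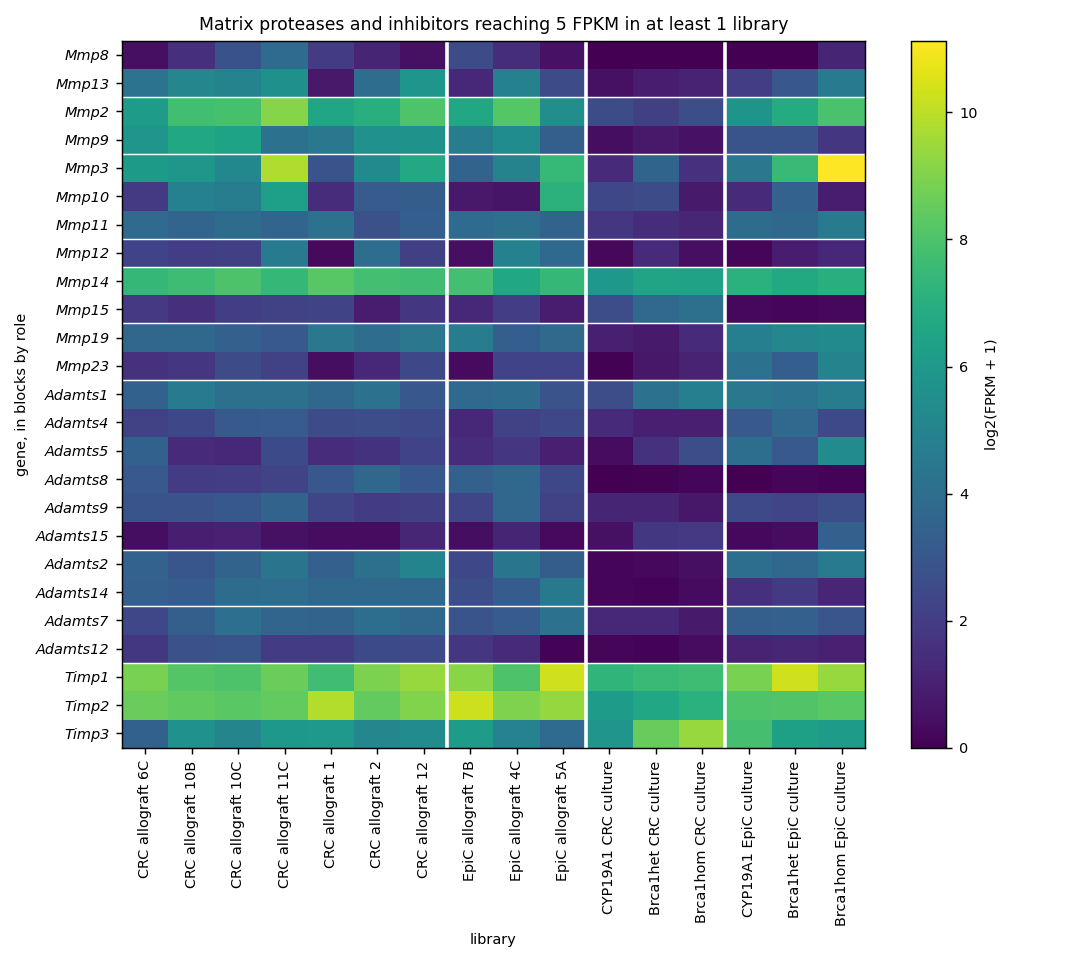
Heat map of log2(FPKM + 1) for the 25 members that reached 5 FPKM in at least 1 of 16 libraries, with libraries as columns in the order CRC allografts, EpiC allografts, CRC cultures, EpiC cultures and genes as rows in blocks by role. The CRC cultures are the darkest block, with 6 members reaching 5 FPKM, while Timp1, Timp2 and Mmp14 are bright in every column.

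Differences were tested with limma on log2(FPKM + 1), with genotype in the model wherever groups of the first table mixed genotypes, and genes averaging below 1 FPKM in a fit were left out. Calls required an adjusted p (Benjamini-Hochberg, every gene of the fit) below 0.05, and a log2 difference below is a difference in log2(FPKM + 1), which understates changes of low genes. A member that passed the filter only through the group in which it is high had to differ, so counts of called members are descriptions of the family. Neither the members nor the lists of other genes were chosen independently of these data.

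Between the cultures, most of the called members were lower in CRC than in EpiC. In CRC cultures 15 of the 26 tested members were lower than in EpiC cultures, where 11.7% of the 11837 genes tested were lower, and 1 was higher (Mmp15), where 11.4% of genes were higher. The median log2 difference was -1.49 over the members and 0.04 over the genes tested. Both gelatinases, both tested procollagen N-proteinases and 2 of 3 tested inhibitors were among the lower ones. These counts depended on single libraries. The lower count was 4 without the CYP19A1 CRC culture, 4 without the CYP19A1 EpiC culture, 3 without the Brca1het CRC culture and 3 without the Brca1het EpiC culture. It was 16 without the Brca1hom CRC culture and 14 without the Brca1hom EpiC culture, the library with almost no epithelial markers. Mmp15 was no longer called without the Brca1het CRC culture or without the Brca1het EpiC culture, and 2 members were higher without the CYP19A1 EpiC culture. Markers of fibroblasts moved with these genes. Of 10 fibroblast markers 9 were lower in CRC cultures (9 also without the Brca1hom EpiC culture, 4 without the Brca1het CRC culture and 5 without the Brca1het EpiC culture), with sums of 66.3 to 237 FPKM in CRC cultures against 4767 to 7405 FPKM in EpiC cultures. Their part in the members' differences was not tested, and in bulk RNA fewer cells of a type and less RNA per cell cannot be told apart.

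Between the CRC cultures and the allografts grown from CRC cells, most called members differed in the other direction. In CRC allografts 17 of the 28 tested members were higher than in CRC cultures, against 21.2% of 12325 genes tested, and 2 were lower (Mmp15 and Timp3), against 18.4% of genes. The median log2 difference was 1.70 over the members and 0.04 over the genes tested. Leaving out 1 library at a time gave 15 to 19 higher members, while the lower count fell to 1 without the Brca1het CRC culture and to 1 without the Brca1hom CRC culture, where Timp3 was lost. Several cell types moved with this change. All 10 fibroblast markers were higher, with sums of 2696 to 5776 FPKM in CRC allografts against 66.3 to 237 FPKM in CRC cultures. The 12 macrophage markers in the table were higher too, with sums of 3549 to 11608 FPKM in CRC allografts against 11.1 to 55.3 FPKM in CRC cultures, and 10 of them stayed below 1 FPKM in every CRC culture. Of 9 tested endothelial markers 8 were higher, and 6 of 8 epithelial markers were lower, with sums of 43.8 to 587 FPKM in CRC allografts against 9754 to 15342 FPKM in CRC cultures. The part of these cell types in the members' change was not tested.

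The EpiC allografts differed less from their cultures. In EpiC allografts 3 of the 28 tested members were higher than in EpiC cultures (Adamts8, Adamts14 and Timp2), against 7.94% of genes tested, and 4 were lower (Mmp17, Mmp23, Adamts4 and Adamts5), against 6.26% of genes. The median log2 difference was -0.20 over the members and 0.01 over the genes tested. The lower count fell to 0 without the CYP19A1 EpiC culture, to 1 without EpiC allograft 7B, to 2 without the Brca1het EpiC culture and to 2 without the Brca1hom EpiC culture, and the higher count was 5 without EpiC allograft 5A. All 12 macrophage markers were higher in EpiC allografts too, with sums of 3358 to 12479 FPKM in EpiC allografts against 7.59 to 19.7 FPKM in EpiC cultures. Of 9 tested endothelial markers 6 were higher. Fibroblast markers behaved otherwise, with 0 of 10 higher and 2 lower (1 without the Brca1hom EpiC culture, 4 without EpiC allograft 4C), and with sums of 1108 to 4340 FPKM in EpiC allografts against 4767 to 7405 FPKM in EpiC cultures. Of 8 epithelial markers 0 were called lower, but 0 to 5 were with 1 library left out in turn. Their median log2 difference was -2.21. They summed to 200 to 895 FPKM in EpiC allografts, against 4.21 to 1682 FPKM in EpiC cultures.

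The difference between these changes was tested directly. The allograft-minus-culture change, taken with its sign, was more positive in CRC than in EpiC for 13 of 28 tested members, against 6.35% of genes tested, and more negative for 1 (Mmp15), against 5.87% of genes. A more positive change can be a rise in CRC allografts or a fall in EpiC allografts. The median of this difference was 1.69 over the members and -0.01 over the genes tested. Without each library in turn, 10 to 13 members had the more positive change in CRC. Of the fibroblast markers 9 of 10 had the more positive change in CRC as well, whereas 0 of 12 macrophage markers and 0 of 9 endothelial markers were called in this test. Of 8 epithelial markers 1 had the more negative change in CRC (1 to 2 with 1 library left out in turn), and their median difference was -3.00.

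**Figure D2:**
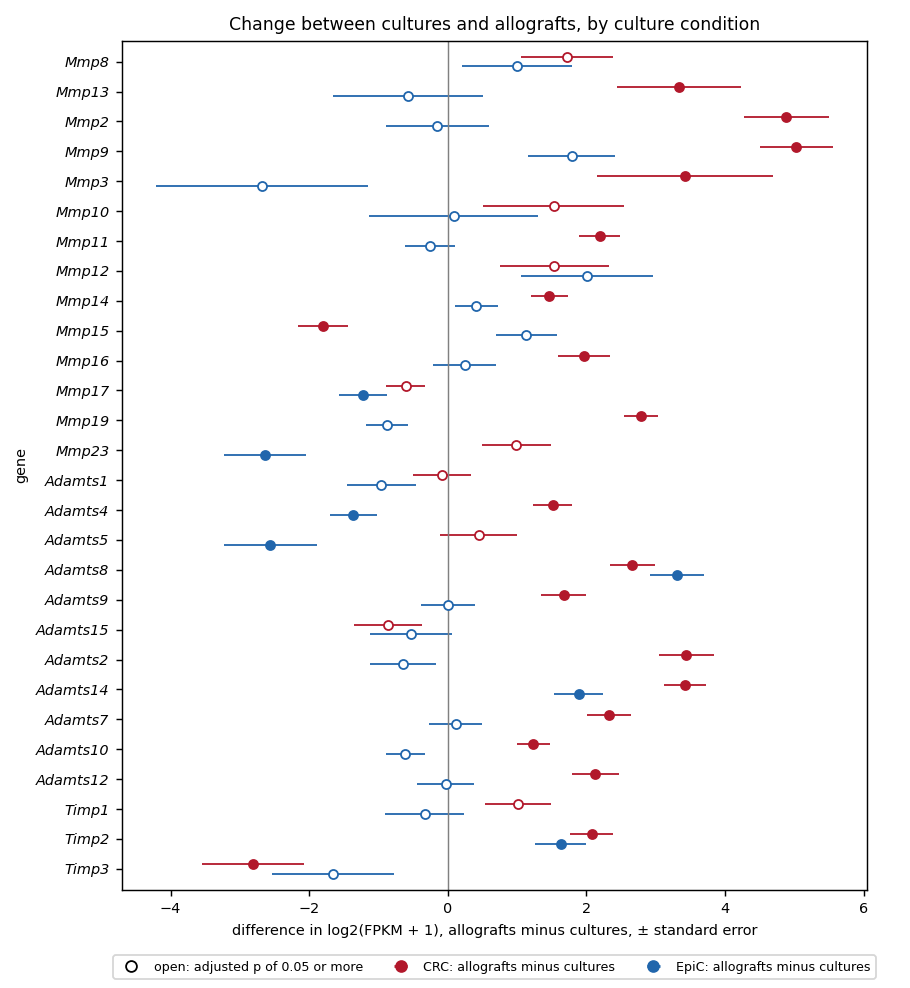
Allograft-minus-culture differences in log2(FPKM + 1) with standard errors for the 28 tested members, ordered by role. Red points are CRC (7 allografts, 3 cultures), blue points are EpiC (3 allografts, 3 cultures), and filled points had an adjusted p under 0.05. Most red points lie right of 0, with Mmp9 at 5.03 and Mmp2 at 4.88, while the blue points lie on both sides and Mmp15 is the member with red at -1.80 and blue at 1.13.

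The gelatinases Mmp2 and Mmp9 cleave denatured collagen and basement membrane collagen. Mmp2 had 68.0, 216 and 552 FPKM (lowest, median and highest of 7) in CRC allografts, against 5.05, 3.35 and 5.20 FPKM in CRC cultures. It had 97.8, 289.5 and 44.8 FPKM in EpiC allografts, against 53.7, 115 and 243 FPKM in EpiC cultures. The CRC cultures were thus the low group, and none of them overlapped with any other library of the table. Mmp2 was higher in CRC allografts than in CRC cultures by a log2 difference of 4.88 ± 0.61 (SE; limma adjusted p = 2.98e-05) and lower in CRC than in EpiC cultures by -4.40 ± 0.45 (adjusted p = 0.0105). Its change was more positive in CRC than in EpiC by 5.03 ± 0.96 (adjusted p = 0.00382), and in EpiC alone it was -0.15 ± 0.74 (adjusted p = 0.923).

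Mmp9 had 17.3, 49.9 and 96.7 FPKM (lowest, median and highest) in CRC allografts, against 0.329, 0.716 and 0.449 FPKM in CRC cultures. Its EpiC values were 24.4, 41.9 and 9.25 FPKM in allografts, against 6.49, 6.44 and 2.38 FPKM in cultures. The order of the groups differed from that of Mmp2, since every EpiC allograft was above every EpiC culture, although the EpiC change of 1.78 ± 0.63 was not called (limma adjusted p = 0.0773). Mmp9 rose in CRC allografts by a log2 difference of 5.03 ± 0.53 (adjusted p = 5.45e-06), was lower in CRC than in EpiC cultures by -1.94 ± 0.32 (adjusted p = 0.0239), and its change was more positive in CRC by 3.25 ± 0.82 (adjusted p = 0.0202).

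The interstitial collagenases cut intact fibrillar collagen. Mmp13 had 0.702, 30.1 and 55.9 FPKM (lowest, median and highest) in CRC allografts, against 0.410, 0.875 and 1.08 FPKM in CRC cultures, and 1.34, 28.6 and 5.001 FPKM in EpiC allografts, against 3.05, 7.22 and 22.4 FPKM in EpiC cultures. CRC allograft 1 was the low value at 0.702 FPKM, within the range of the CRC cultures, and the other CRC allografts started at 14.9 FPKM. Mmp13 was higher in CRC allografts than in CRC cultures by 3.34 ± 0.90 (log2 difference, limma adjusted p = 0.00939) and lower in CRC than in EpiC cultures by -2.38 ± 0.43 (adjusted p = 0.0277). Mmp8, the neutrophil collagenase, had 0.393 to 13.8 FPKM in CRC allografts, against at most 0.0185 FPKM in CRC cultures, a change that was not called (adjusted p = 0.0528). Mmp1a and Mmp1b stayed below 1 FPKM in the 16 libraries except for 2.28 FPKM of Mmp1a in EpiC allograft 5A and 3.30 FPKM of Mmp1b in CRC allograft 11C.

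The stromelysins Mmp3 and Mmp10 cleave proteoglycans and activate other metalloproteinases, and Mmp11 (stromelysin-3) is best known for cleaving serine protease inhibitors. Mmp3 differed widely among libraries of the same group. It had 6.25, 57.6 and 884 FPKM (lowest, median and highest) in CRC allografts, against 1.59, 10.9 and 2.03 FPKM in CRC cultures, and 10.5, 30.9 and 177 FPKM in EpiC allografts, against 20.9, 185 and 2238 FPKM in EpiC cultures. The 3 EpiC cultures were all above the 3 CRC cultures, but they differed among themselves so widely that the log2 difference of -5.52 ± 1.36 in CRC against EpiC cultures was not called (limma adjusted p = 0.0512). Mmp3 was called higher in CRC allografts than in CRC cultures by 3.42 ± 1.27 (adjusted p = 0.0455), a call lost in 9 of 16 other settings and with overlapping groups.

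Mmp10 ranged from 1.63 to 76.8 FPKM in CRC allografts and had 0.697, 0.566 and 140.2 FPKM in EpiC allografts, against 0.727 to 5.04 FPKM in CRC cultures and 0.826 to 10.1 FPKM in EpiC cultures. It passed the test in none of the comparisons of either table. CRC allograft 11C held the highest Mmp3, Mmp10 and Mmp8 of the CRC allografts, and EpiC allograft 5A the highest Mmp3 and Mmp10 of the EpiC allografts. Neutrophil markers also summed highest in these libraries, to 590.0 FPKM in CRC allograft 11C, against 36.2 to 184 FPKM in the other CRC allografts, and to 308 FPKM in EpiC allograft 5A, against 79.8 and 96.4 FPKM in the other EpiC allografts. The same sum was 485 to 1408 FPKM in the CRC cultures, although 7 of its 10 markers stayed below 1 FPKM in every CRC culture. Csf3r, Elane, Ngp, Camp and Retnlg of this list were at 0 there. A few genes can thus carry the sum, so it is no measure of neutrophils. Its part in the members' values was not tested. Mmp11 was far steadier, with 5.73, 11.5 and 16.9 FPKM (lowest, median and highest) in CRC allografts against 2.36, 1.73 and 1.30 FPKM in CRC cultures, and 13.8, 16.4 and 10.5 FPKM in EpiC allografts against 14.2, 12.2 and 22.5 FPKM in EpiC cultures. The CRC cultures were the low group and overlapped with no other. Mmp11 was higher in CRC allografts than in CRC cultures by a log2 difference of 2.19 ± 0.30 (limma adjusted p = 5.86e-05), and lower in CRC than in EpiC cultures by -2.60 ± 0.30 (adjusted p = 0.0126). Its change was more positive in CRC than in EpiC by 2.44 ± 0.47 (adjusted p = 0.00376). Mmp11 overlaps Chchd10 on the opposite strand in GENCODE M21, and without a stated strand setting reads of the pair cannot be told apart where they overlap.

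Matrilysin (Mmp7), which epithelial cells make, was low throughout the first table, with means of 2.01 FPKM in CRC cultures and 0.608 FPKM in CRC allografts. The macrophage elastase Mmp12 was low in the cultures of that table. Mmp12 had 0.212 to 23.4 FPKM in CRC allografts and 0.362, 28.6 and 12.8 FPKM in EpiC allografts, against 0.188 to 1.59 FPKM in CRC cultures and 0.124 to 1.34 FPKM in EpiC cultures. Neither allograft change was called (limma adjusted p = 0.138 in CRC and 0.182 in EpiC), although 12 of 12 macrophage markers were higher in both. Mmp7 had 2.27 and 3.76 FPKM in the Brca1het and Brca1hom CRC cultures and was listed at 0 in the CYP19A1 CRC culture, and it exceeded 1 FPKM elsewhere in the first table only in CRC allograft 11C (4.02 FPKM) and the CYP19A1 EpiC culture (1.31 FPKM).

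Among the membrane-anchored enzymes, Mmp14 (MT1-MMP), a collagenase that also activates the proenzyme of Mmp2, had the highest level of any Mmp gene in each CRC culture. It had 169.5, 212 and 296 FPKM (lowest, median and highest) in CRC allografts, against 59.8, 89.9 and 85.1 FPKM in CRC cultures, and 225, 98.2 and 171 FPKM in EpiC allografts, against 137, 108 and 127 FPKM in EpiC cultures. Every CRC allograft was above every culture of either kind. Mmp14 was higher in CRC allografts than in CRC cultures by a log2 difference of 1.47 ± 0.26 (limma adjusted p = 0.000594), while CRC and EpiC cultures (-0.68 ± 0.23) were not called apart (adjusted p = 0.0982).

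Mmp15 (MT2-MMP) was the 1 member called higher in CRC than in EpiC cultures and, beside Timp3, 1 of the 2 called lower in CRC allografts than in CRC cultures. It had 0.797, 2.58 and 3.87 FPKM (lowest, median and highest) in CRC allografts, against 5.17, 13.0 and 16.4 FPKM in CRC cultures, and 1.40, 3.07 and 0.780 FPKM in EpiC allografts, against 0.180, 0.143 and 0.165 FPKM in EpiC cultures. The CRC cultures were the high group and the EpiC cultures the low one, with no overlap of either with any other library. Mmp15 was higher in CRC than in EpiC cultures by a log2 difference of 3.30 ± 0.36 (limma adjusted p = 0.0121), and lower in CRC allografts than in CRC cultures by -1.80 ± 0.36 (adjusted p = 0.00146). Its change differed between CRC and EpiC by -2.93 ± 0.57 (adjusted p = 0.00429). Epithelial markers summed highest in the CRC cultures too, but the other groups did not follow the same order. The sums were 1663, 1682 and 4.21 FPKM in the EpiC cultures, the low group for Mmp15. They were 43.8 to 587 FPKM in CRC allografts and 200 to 895 FPKM in EpiC allografts. The part of epithelial cells was not tested. Mmp16 and Mmp17 peaked below 5 FPKM. Mmp16 was higher in CRC allografts by 1.96 ± 0.38 (adjusted p = 0.00102) and Mmp17 lower in EpiC allografts by -1.22 ± 0.35 (adjusted p = 0.0313).

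Mmp19, a basement membrane protease, was among the steadiest members within groups. It had 7.70, 12.4 and 20.7 FPKM (lowest, median and highest) in CRC allografts, against 0.954, 0.748 and 1.52 FPKM in CRC cultures, and 24.9, 8.92 and 13.6 FPKM in EpiC allografts, against 27.0, 34.0 and 38.7 FPKM in EpiC cultures. The groups ran from CRC cultures at the bottom through both kinds of allograft to EpiC cultures at the top, with the allografts overlapping each other. Mmp19 was lower in CRC than in EpiC cultures by a log2 difference of -4.05 ± 0.18 (limma adjusted p = 0.00264) and higher in CRC allografts than in CRC cultures by 2.79 ± 0.25 (adjusted p = 1.21e-06). The change was more positive in CRC than in EpiC by 3.66 ± 0.39 (adjusted p = 4.2e-05), and the EpiC change of -0.87 ± 0.30 was not called (adjusted p = 0.0687). Part of the gene lies opposite Tmem198b.

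Mmp23, an enzyme that lacks the usual hemopexin domain, had 2.02, 2.42, 5.02, 3.44, 0.346, 1.40 and 4.35 FPKM in CRC allografts 6C, 10B, 10C, 11C, 1, 2 and 12, against 0.0601, 0.634 and 1.14 FPKM in CRC cultures. Its EpiC values were 0.239, 3.75 and 3.68 FPKM in allografts, against 17.1, 8.93 and 30.7 FPKM in cultures. The EpiC cultures stood above every other library. Mmp23 was lower in CRC than in EpiC cultures by a log2 difference of -3.53 ± 0.35 (limma adjusted p = 0.0104) and lower in EpiC allografts than in EpiC cultures by -2.64 ± 0.59 (adjusted p = 0.00967). The CRC change of 0.99 ± 0.49 was not called (adjusted p = 0.127), and the difference of the changes, CRC minus EpiC, was 3.63 ± 0.77 (adjusted p = 0.00755).

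**Figure D3:**
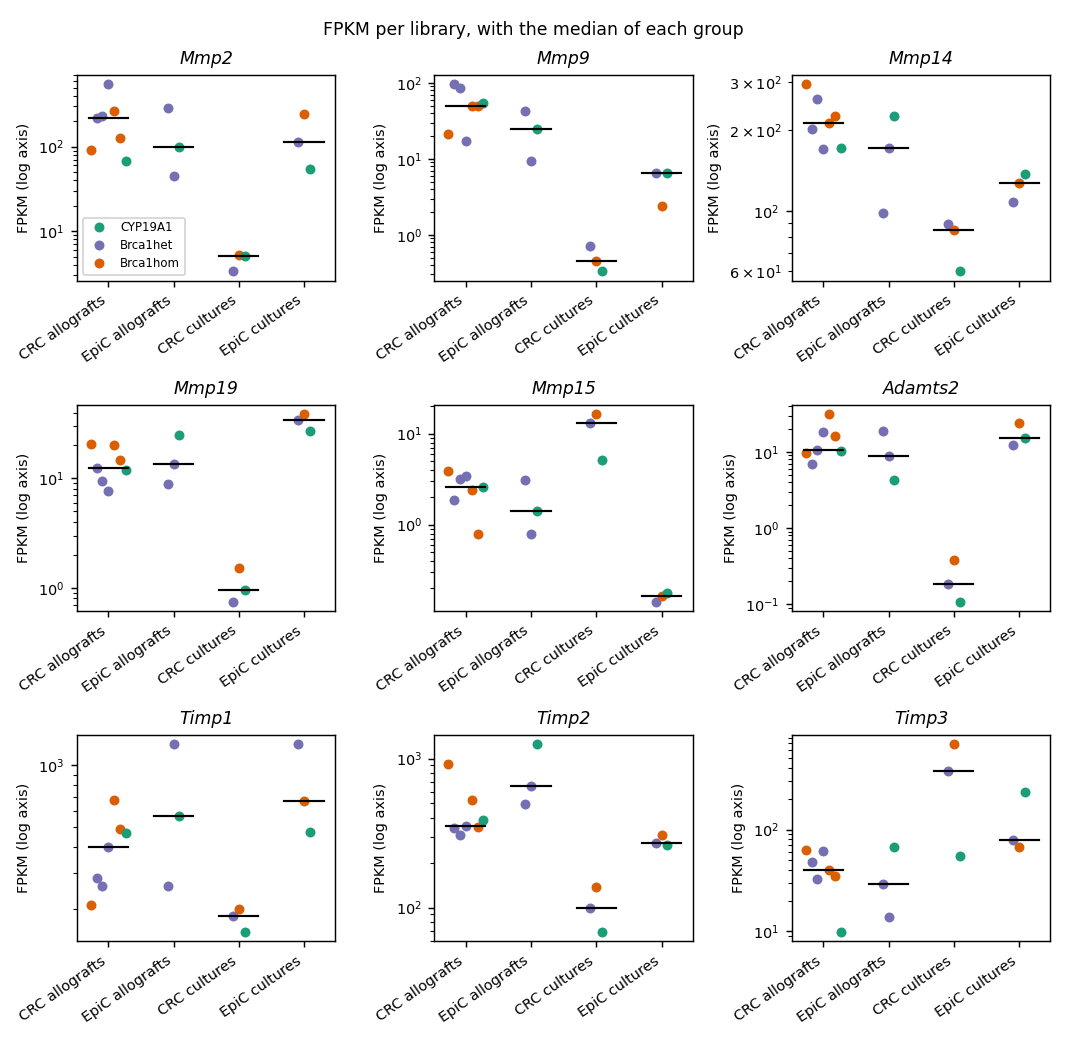
FPKM on log axes for Mmp2, Mmp9, Mmp14, Mmp19, Mmp15, Adamts2, Timp1, Timp2 and Timp3 in CRC allografts (n = 7), EpiC allografts (n = 3), CRC cultures (n = 3) and EpiC cultures (n = 3). Each point is a library coloured by genotype and lines are group medians; the CRC cultures are the lowest group for Mmp2, Mmp9, Mmp14, Mmp19, Adamts2, Timp1 and Timp2, and the highest by median for Mmp15 and Timp3.

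The procollagen N-proteinases Adamts2 and Adamts14 remove the amino-terminal propeptides of fibrillar procollagens. Adamts2 had 6.89, 10.6 and 31.4 FPKM (lowest, median and highest) in CRC allografts, against 0.108, 0.184 and 0.381 FPKM in CRC cultures, and 4.30, 19.0 and 8.86 FPKM in EpiC allografts, against 15.4, 12.2 and 24.1 FPKM in EpiC cultures. The CRC cultures were the only group near 0. Adamts2 was lower in CRC than in EpiC cultures by a log2 difference of -3.85 ± 0.22 (limma adjusted p = 0.00379) and higher in CRC allografts than in CRC cultures by 3.44 ± 0.39 (adjusted p = 1.27e-05). The difference of the changes was 4.08 ± 0.62 (adjusted p = 0.000725).

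Adamts14 had 8.53, 12.3 and 15.0 FPKM (lowest, median and highest) in CRC allografts, against 0.121, 0.0840 and 0.249 FPKM in CRC cultures, and 5.39, 8.51 and 21.6 FPKM in EpiC allografts, against 1.84, 2.70 and 1.27 FPKM in EpiC cultures. Here both kinds of allograft lay above both kinds of culture. Adamts14 was higher in CRC allografts than in CRC cultures by a log2 difference of 3.42 ± 0.30 (limma adjusted p = 9.57e-07) and higher in EpiC allografts than in EpiC cultures by 1.89 ± 0.36 (adjusted p = 0.00319). It was lower in CRC than in EpiC cultures by -1.32 ± 0.29 (adjusted p = 0.0418), and the difference of the changes of 1.53 ± 0.47 (adjusted p = 0.0468) lost its call in 15 other settings. The third member of this role, Adamts3, reached at most 1.10 FPKM.

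The ADAMTS proteases that cleave aggrecan or versican did not all move one way. Adamts4 (aggrecanase-1) had 3.53, 5.03 and 8.07 FPKM (lowest, median and highest) in CRC allografts, against 1.4999, 0.975 and 0.978 FPKM in CRC cultures, and 1.33, 3.45 and 4.39 FPKM in EpiC allografts, against 7.50, 12.9 and 4.47 FPKM in EpiC cultures. The CRC allografts lay above the CRC cultures and the EpiC allografts below the EpiC cultures, the last by a narrow margin. It rose in CRC allografts by a log2 difference of 1.51 ± 0.28 (limma adjusted p = 0.000739) and fell by 1.36 ± 0.34 in EpiC allografts (adjusted p = 0.0158), a difference of the changes of 2.87 ± 0.44 (adjusted p = 0.000749). Between the cultures it was lower in CRC by -2.02 ± 0.33 (adjusted p = 0.023).

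Adamts5 (aggrecanase-2) had 1.44, 2.13 and 9.91 FPKM (lowest, median and highest) in CRC allografts, against 0.307, 1.99 and 5.30 FPKM in CRC cultures, and 1.66, 2.36 and 0.978 FPKM in EpiC allografts, against 15.1, 7.65 and 40.2 FPKM in EpiC cultures. The EpiC cultures were high relative to both EpiC allografts and CRC cultures, while CRC allografts and CRC cultures overlapped. Adamts5 was lower in EpiC allografts than in EpiC cultures by a log2 difference of -2.56 ± 0.67 (limma adjusted p = 0.0215) and lower in CRC than in EpiC cultures by -2.62 ± 0.43 (adjusted p = 0.0239). The CRC change of 0.44 ± 0.56 was not called (adjusted p = 0.554). The difference of the changes was 3.01 ± 0.87 (adjusted p = 0.0379) and lost its call in 12 other settings.

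Adamts8 rose in both kinds of allograft, as Adamts14 and Timp2 also did. It had 2.85, 7.14 and 11.6 FPKM (lowest, median and highest) in CRC allografts, and 9.73, 12.5 and 4.32 FPKM in EpiC allografts, against at most 0.120 FPKM in CRC cultures and at most 0.161 FPKM in EpiC cultures. Neither kind of allograft overlapped with the cultures. Adamts8 was higher by a log2 difference of 2.66 ± 0.32 in CRC allografts (limma adjusted p = 2.09e-05) and by 3.31 ± 0.39 in EpiC allografts (adjusted p = 6.58e-05), and the difference of these changes was -0.65 ± 0.51 (adjusted p = 0.457).

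Adamts9 had 2.79, 6.19 and 10.5 FPKM (lowest, median and highest) in CRC allografts, against 1.23, 1.24 and 0.638 FPKM in CRC cultures, and 4.01, 11.8 and 3.40 FPKM in EpiC allografts, against 4.56, 3.97 and 5.33 FPKM in EpiC cultures. The CRC cultures were the low group and overlapped with no other. It was higher in CRC allografts than in CRC cultures by a log2 difference of 1.67 ± 0.33 (limma adjusted p = 0.00108) and lower in CRC than in EpiC cultures by -1.47 ± 0.25 (adjusted p = 0.025). The difference of the changes, 1.67 ± 0.51 (adjusted p = 0.0477), lost its call in 17 other settings. Adamts1, a versicanase expressed at 5.15 to 26.7 FPKM across the 16 libraries, and Adamts15, at most 9.74 FPKM, passed none of the tests.

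Among the other ADAMTS genes, Adamts7, which can cleave cartilage oligomeric matrix protein, had 4.12, 11.5 and 15.9 FPKM (lowest, median and highest) in CRC allografts, against 1.35, 1.46 and 0.763 FPKM in CRC cultures, and 6.40, 8.45 and 16.7 FPKM in EpiC allografts, against 9.44, 9.74 and 6.62 FPKM in EpiC cultures. CRC cultures were the low group, without overlap. Adamts7 was higher in CRC allografts than in CRC cultures by a log2 difference of 2.32 ± 0.32 (limma adjusted p = 6.44e-05) and lower in CRC than in EpiC cultures by -2.13 ± 0.17 (adjusted p = 0.00733), and its change was more positive in CRC by 2.21 ± 0.50 (adjusted p = 0.0108). It overlaps Tbc1d2b on the opposite strand.

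Adamts12 had 2.53, 4.44 and 6.49 FPKM (lowest, median and highest) in CRC allografts, against 0.107, 0.0903 and 0.291 FPKM in CRC cultures, and 2.399, 1.51 and 0.0748 FPKM in EpiC allografts, against 1.08, 1.32 and 1.00 FPKM in EpiC cultures. The CRC allografts were the high group and did not overlap with any other library. Adamts12 was higher in CRC allografts than in CRC cultures by 2.13 ± 0.34 (log2 difference, limma adjusted p = 0.00024), and its change was more positive in CRC than in EpiC by 2.16 ± 0.54 (adjusted p = 0.018). Adamts10, which peaked at 4.49 FPKM, was higher in CRC allografts by 1.24 ± 0.24 (adjusted p = 0.00103), lower in CRC than in EpiC cultures by -1.42 ± 0.24 (adjusted p = 0.025) and had a change more positive in CRC than in EpiC by 1.85 ± 0.37 (adjusted p = 0.00547).

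The inhibitors did not move together. Timp1, a secreted inhibitor of most soluble metalloproteinases, had 209, 399 and 681 FPKM (lowest, median and highest) in CRC allografts, against 155, 184 and 201 FPKM in CRC cultures, and 570.0, 259 and 1266 FPKM in EpiC allografts, against 473, 1268 and 676 FPKM in EpiC cultures. The CRC cultures were again lowest and did not overlap with the other groups. Timp1 was lower in CRC than in EpiC cultures by a log2 difference of -2.04 ± 0.29 (limma adjusted p = 0.018), while the CRC allograft change of 1.01 ± 0.48 was not called (adjusted p = 0.108).

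Timp2, which besides inhibiting links Mmp14 to the proenzyme of Mmp2, had 307, 353 and 914 FPKM (lowest, median and highest) in CRC allografts, against 68.9, 99.97 and 137 FPKM in CRC cultures, and 1246, 499 and 657 FPKM in EpiC allografts, against 264, 272 and 306 FPKM in EpiC cultures. Each group of allografts lay wholly above its cultures. Timp2 was higher in CRC allografts than in CRC cultures by a log2 difference of 2.08 ± 0.31 (limma adjusted p = 0.000126) and higher in EpiC allografts than in EpiC cultures by 1.63 ± 0.37 (adjusted p = 0.0105). It was lower in CRC than in EpiC cultures by -1.50 ± 0.21 (adjusted p = 0.0176).

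Timp3, a matrix-bound inhibitor that also acts on ADAMTS proteases, went the other way. It had 9.91, 40.0 and 63.1 FPKM (lowest, median and highest) in CRC allografts, against 54.7, 373 and 686 FPKM in CRC cultures, and 68.0, 29.4 and 13.9 FPKM in EpiC allografts, against 232, 79.1 and 67.1 FPKM in EpiC cultures. The CYP19A1 CRC culture, at 54.7 FPKM, lay within the range of the CRC allografts and far below the other CRC cultures. Timp3 was lower in CRC allografts than in CRC cultures by a log2 difference of -2.81 ± 0.73 (limma adjusted p = 0.00764). Neither the EpiC change of -1.65 ± 0.88 (adjusted p = 0.236) nor the difference of the changes of -1.16 ± 1.15 (adjusted p = 0.567) was called.

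Timp1, Timp3 and Timp4 lie inside the synapsin genes Syn1, Syn3 and Syn2 on the opposite strand in GENCODE M21. Syn1 had at most 4.005 FPKM and Syn3 at most 0.656 FPKM in any library of the first table, against at least 155 FPKM of Timp1 and 9.91 FPKM of Timp3.

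Summed over the family, metalloproteinase transcripts and inhibitor transcripts changed in different proportions. The summed FPKM of the 4 Timp genes divided by that of the 23 Mmp genes was 0.446, 1.68 and 2.54 (lowest, median and highest) in CRC allografts, against 3.20, 4.93 and 8.41 in CRC cultures. For EpiC it was 4.59, 1.42 and 3.25 in allografts, against 3.38, 3.28 and 0.383 in cultures. The CRC cultures all lay above the CRC allografts, whereas the EpiC groups overlapped. Mmp14 made up 67.4% to 69.8% of the summed Mmp FPKM in the 3 CRC cultures. In the Brca1hom EpiC culture Mmp3 made up 81.6% of it, and in CRC allograft 11C 48.5%.

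Other genes of extracellular proteolysis were followed through a list of 47 activators, further matrix proteases and their inhibitors. In CRC against EpiC cultures 13 of 39 tested were lower, against 11.7% of genes, and 4 higher, against 11.4% of genes. The lower count was 5 without either CYP19A1 culture, 2 without either Brca1het culture and 15 without either Brca1hom culture, and the higher count was 0 to 3 without 1 library. The largest lower differences were those of Pcolce (-6.79), which enhances procollagen C-proteinase, Ctsk (-3.55), a collagen-cleaving cathepsin, Plat (-3.12), the tissue plasminogen activator, and Adam19 (-2.96), and the higher genes were Serpinb5 (4.94), an epithelial serpin, Adam8 (2.30), Papln (1.35) and Adamtsl5 (0.90), all as log2 differences.

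In CRC allografts against CRC cultures 15 of 41 tested were higher (10 without the Brca1het CRC culture) and 10 lower (6 without the Brca1hom CRC culture), against 21.2% and 18.4% of genes, led by Ctss (9.33), a cathepsin of macrophages and other immune cells, Pcolce (5.82), Ctsk (4.41) and Tfpi2 (4.31) among the higher, and by Serpinb5 (-7.83), Serpinb2 (-6.71), Spint2 (-6.18) and Spint1 (-5.06), the last of which are epithelial inhibitors of serine proteases, among the lower. In EpiC allografts against EpiC cultures 4 of 41 were higher, against 7.94% of genes, namely Ctss (9.88), Htra1 (1.68), Cst3 (1.1999) and Ctsb (1.04), and 9 were lower, against 6.26% of genes, led by Serpinb2 (-4.11), Serpinb5 (-2.97), Serpinh1 (-2.82) and Spint1 (-2.38). The higher count was 2 without EpiC allograft 4C, the CYP19A1 EpiC culture or the Brca1het EpiC culture, and 3 without the Brca1hom EpiC culture. The lower count was 4 without EpiC allograft 4C, 5 without the CYP19A1 or the Brca1het EpiC culture and 10 without the Brca1hom EpiC culture. The change was more positive in CRC than in EpiC for 8 of 41, against 6.35% of genes (6 to 12 without 1 library), with Pcolce (7.08), Adam19 (4.71), Plat (4.58) and Serpinh1 (3.55) in front, and more negative for 1, Serpinb5 (-4.86), against 5.87% of genes (0 to 4 without 1 library). Ctss had 373, 754 and 1511 FPKM (lowest, median and highest) in CRC allografts, against at most 0.284 FPKM in CRC cultures, and macrophage markers moved with it.

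Among the allografts themselves, no member was called by the culture condition of the grafted cells. The groups did not overlap for Adamts12, and the share of all genes without overlap was not computed. In CRC against EpiC allografts 0 of 27 tested members were called by limma, against 0.00833% of 11999 genes tested in either direction, and 5 had an unadjusted p under 0.05, against 8.43% of genes. These were Adamts12 (log2 difference 1.31 ± 0.44, adjusted p = 0.479), Timp2 (-1.05 ± 0.37, adjusted p = 0.502), Adamts4 (0.72 ± 0.27), Mmp16 (0.71 ± 0.29) and Adamts8 (-0.80 ± 0.35). The median log2 difference was 0.36 over the members and 0.02 over the genes tested. With 7 and 3 libraries and Mmp10 spanning 0.566 to 140.2 FPKM among the EpiC allografts, a call that is absent does not show that the members are alike. None of the 47 further genes was called here (1 without CRC allograft 1) or in the comparison by Brca1 genotype.

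By Brca1 genotype, Brca1hom CRC allografts (1, 2 and 12) were set against Brca1het CRC allografts (10B, 10C and 11C). Again 0 of 27 tested members were called by limma, against 0% of 11928 genes tested, and 5 had an unadjusted p under 0.05, against 10.4% of genes. Sums of macrophage and endothelial markers stood apart between these genotypes, while the sums of the other marker lists overlapped. No marker was called, with 0 of 12 tested for macrophages and 0 of 9 for endothelium. Macrophage markers summed to 5988, 8156 and 7945 FPKM in Brca1hom allografts, against 3549, 4579 and 3755 FPKM in Brca1het allografts, and endothelial markers to 70.2, 77.3 and 139 FPKM in Brca1hom allografts, against 146, 205 and 220 FPKM in Brca1het allografts, both without overlap. Their part in the members' values was not tested. Adamts8 had 7.14, 11.6 and 7.48 FPKM in Brca1hom allografts, against 2.85, 3.002 and 3.89 FPKM in Brca1het allografts, without overlap (log2 difference 1.18 ± 0.24, adjusted p = 0.291). Mmp10 had 1.63, 8.203 and 8.67 FPKM in Brca1hom allografts, against 28.8, 24.1 and 76.8 FPKM in Brca1het allografts, also without overlap (-2.65 ± 0.62, adjusted p = 0.301). Adamts9 (-1.02 ± 0.25, adjusted p = 0.301), Mmp19 (0.86 ± 0.24, adjusted p = 0.345) and Mmp8 (-1.54 ± 0.62, adjusted p = 0.455) were the others with an unadjusted p under 0.05. Groups of 3 and 3 libraries can stand apart by chance, and the share of all genes without overlap was not computed. The median log2 difference was -0.33 over the members and -0.01 over the genes tested.

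The second table, normalised apart from the first, set cultures against the cancers they were made from. In it 31 of the 46 members reached 1 FPKM in at least 1 library and 18 reached 5 FPKM, with 14 doing so in the cancers, 10 in the CRC cultures and 8 in the EpiC cultures. No member was called by limma in any of its 3 comparisons. In CRC cultures against cancers 0 of 22 tested members were called, where 0.889% of 12266 genes were, and 4 had an unadjusted p under 0.05, against 7.02% of genes. In EpiC cultures against cancers 0 of 22 were called, where 0.677% of genes were, and 3 had an unadjusted p under 0.05, against 6.80% of genes. In CRC against EpiC cultures of the cancers 0 of 22 were called, where 0.00815% of genes were, and again 3 had an unadjusted p under 0.05, against 1.63% of genes. Median log2 differences of the members were -0.55, -0.68 and 0.08, against -0.06, 0.08 and -0.08 over the genes tested.

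Mmp7 had 22.8 and 16.6 FPKM in CRC cultures of cancers 1 and 2, against 0.574 FPKM in cancer 1 and a listed 0 in cancer 2. In the EpiC cultures it was listed at 0 and had 2.54 FPKM. Both CRC cultures were above every other library of the table, with a log2 difference from the cancers of 4.03 ± 0.75 (limma adjusted p = 0.0901) and from the EpiC cultures of 3.44 ± 0.75 (adjusted p = 1).

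Mmp12 had 0.0213 and 0.0937 FPKM in CRC cultures, and 0.0289 and 0.0601 FPKM in EpiC cultures, against 4.22 and 45.9 FPKM in cancers 1 and 2 (log2 differences -3.89 ± 1.00 and -3.90 ± 1.00, limma adjusted p = 0.226 for both). Mmp9 had 0.146 and 0.188 FPKM in CRC cultures, and 11.4 and 10.3 FPKM in EpiC cultures, against 3.22 and 35.9 FPKM in the cancers. The EpiC culture lay above its cancer for cancer 1 and below it for cancer 2, and both CRC cultures lay below both cancers. The difference of CRC from EpiC cultures of -3.34 ± 1.00 was not called (adjusted p = 1).

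Mmp13 had 0.717 and 1.93 FPKM in CRC cultures, and 3.13 and 1.07 FPKM in EpiC cultures, against 6.46 and 26.7 FPKM in the cancers. Mmp2 had 3.79 and 8.06 FPKM in CRC cultures, and 0.642 and 1.10 FPKM in EpiC cultures, against 11.2 and 7.34 FPKM in the cancers. Here the EpiC cultures were the low group (log2 difference from the cancers -2.44 ± 0.61, limma adjusted p = 0.205), whereas in the cultures of the first table the CRC cultures were. The levels themselves are not set across the tables.

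None of the 3 tested inhibitors was called in the second table. For each of them both CRC cultures lay above both cancers, an order that 2 libraries per group can give by chance. The share of all genes in this order was not computed. Timp2 had 227 and 224 FPKM in CRC cultures, and 115 and 137 FPKM in EpiC cultures, against 56.4 and 133 FPKM in the cancers. Timp1 had 125 and 433 FPKM in CRC cultures, and 137 and 126 FPKM in EpiC cultures, against 112 and 101 FPKM in the cancers. Timp3 had 161 and 33.8 FPKM in CRC cultures, and 6.67 and 58.6 FPKM in EpiC cultures, against 33.2 and 4.13 FPKM in the cancers. The log2 differences of CRC cultures from cancers were 1.12 ± 0.67 for Timp1, 1.37 ± 0.58 for Timp2 and 2.50 ± 1.33 for Timp3 (limma adjusted p = 0.809, 0.711 and 0.799). The ratio of summed Timp to summed Mmp FPKM was 5.83 and 7.28 in CRC cultures and 3.37 and 3.99 in EpiC cultures, against 1.84 and 1.06 in cancers 1 and 2. Adamts13, which cleaves von Willebrand factor, had 1.62 and 10.4 FPKM in CRC cultures, 0.910 and 1.29 FPKM in EpiC cultures, and 4.86 and 1.29 FPKM in the cancers. It had at most 0.00880 FPKM throughout the first table. The tables were normalised apart, so a difference of processing and one of the cells cannot be told apart.

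**Figure D4:**
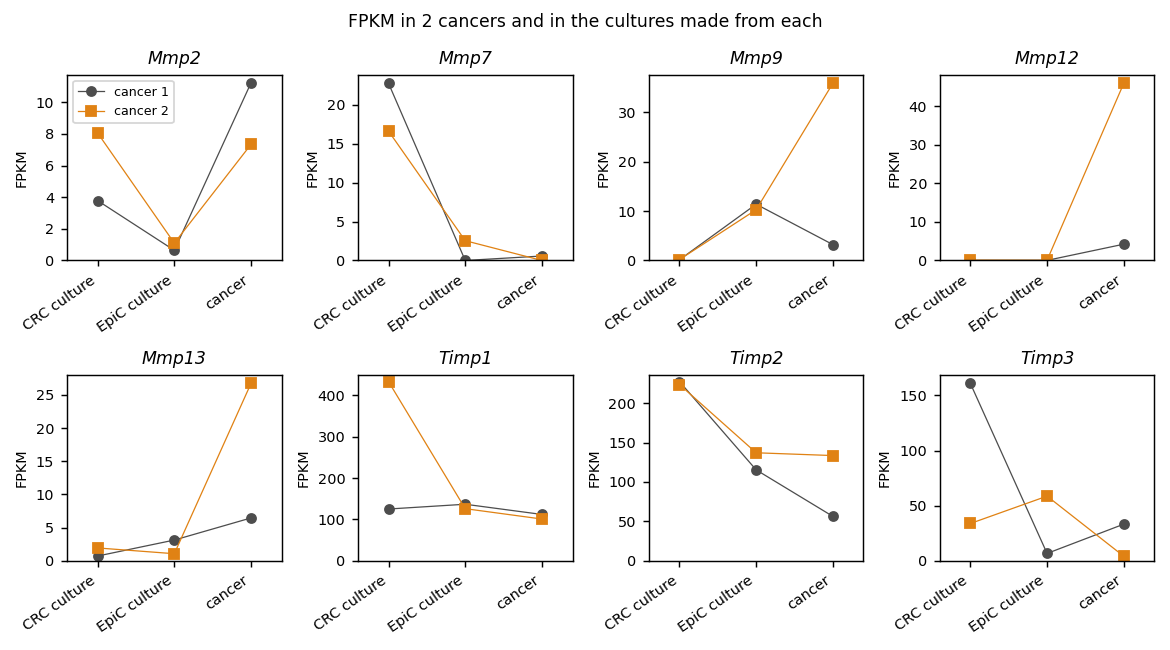
FPKM of Mmp2, Mmp7, Mmp9, Mmp12, Mmp13, Timp1, Timp2 and Timp3 in CRC cultures, EpiC cultures and cancers, with circles for cancer 1 and its cultures, squares for cancer 2 and its cultures, and lines joining libraries of the same cancer. Mmp7 is highest in both CRC cultures (22.8 and 16.6 FPKM), and Mmp12 is near 0 in all 4 cultures, against 4.22 and 45.9 FPKM in the cancers.

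Markers of other cell types differed between these groups as well. Macrophage markers summed to 14.0 and 9.84 FPKM in CRC cultures of cancers 1 and 2 and 14.9 and 37.0 FPKM in EpiC cultures, against 817 and 1215 FPKM in the cancers, and fibroblast markers to 152 and 73.2 FPKM in CRC cultures and 258 and 135 FPKM in EpiC cultures, against 573 and 455 FPKM in the cancers. Their part in the members' values was not tested. Of the 47 further genes, Ctss was lower in CRC cultures than in the cancers (log2 difference -7.50 ± 0.53, limma adjusted p = 0.00672) and lower in EpiC cultures than in the cancers (-7.80 ± 0.53, adjusted p = 0.00568), and no other was called. Without either EpiC culture none of the 47 was called in EpiC cultures against cancers, and without either cancer 3 were lower in each kind of culture.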

How the data were processed

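Poly(A) RNA was sequenced in pairs from TruSeq libraries, per the labels' protocols. The authors deposited FPKM values in 2 tables; TopHat, Cufflinks, Trim Galore and FastQC and the mm9 build are named, without versions or a strand setting, in the submitters' processing notes. The tables were normalised separately and tested separately. FPKM values carry no counts, so depth is unknown. Differences were fitted with limma 3.58.1 (R 4.3.3, lmFit and eBayes with trend) on log2(FPKM + 1). Genes averaging below 1 FPKM over the libraries of a fit were left out, and p-values were adjusted by Benjamini-Hochberg over all genes tested. Allografts were set against cultures in 1 fit of 16 libraries, cultures against each other in 6 and allografts in 10, each with genotype as a covariate; the Brca1 genotypes used 6 CRC allografts, and the cancers and their cultures 6 libraries in 3 groups. The procedure was tested on simulated data. Every member could be named; a member was described library by library where it reached 5 FPKM and was called, and of the 47 further genes the 4 with the largest called change in each direction were named. Mmp7, Mmp9, Mmp12, Mmp13, Mmp2 and the Timp genes of the second table, and Mmp3, Mmp10 and other uncalled members given by library, were chosen after their values were seen. The members and the lists were chosen with earlier results of these data known. In the second table same-numbered libraries come from the same cancer by their titles, which pairs them; their deviations correlated at r = -0.0555, -0.113 and 0.242 across genes for cancers with CRC cultures, cancers with EpiC cultures and the 2 cultures, and the fit with the pairing is an alternative. Other settings tried were median-ratio scaling, a filter at 5 FPKM or none, 0.1 as pseudocount, dropping the genotype term, averaging CRC allografts 10B and 10C, Brca1het allografts alone, and each library left out. Sequences are from RefSeq, GRCm38.p6, and overlaps from GENCODE M21.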

Additional observations from a re-analysis of the deposited data

Results flagged for a closer look

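Among 27 members examined in the 7 CRC allografts, 3 had a library far from the rest, where chance gives about 1 in 20. Adamts7 was 4.12 FPKM in CRC allograft 6C, against 9.32 to 15.9 FPKM in the others. Timp3 was 9.91 FPKM in CRC allograft 6C, against 32.8 to 63.1 FPKM in the others. Mmp13 was 0.702 FPKM in CRC allograft 1, against 14.9 to 55.9 FPKM in the others. CRC allograft 6C was the only CYP19A1 library among the CRC allografts, so its genotype and the library cannot be told apart.

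The allograft-minus-culture change differed between CRC and EpiC for 14 members in limma's interaction test, given as log2 differences of CRC minus EpiC. With sign, the changes were more positive in CRC for Mmp2 (5.03), Adamts2 (4.08), Mmp19 (3.66), Mmp23 (3.63), Mmp9 (3.25), Adamts5 (3.01), Adamts4 (2.87), Mmp11 (2.44), Adamts7 (2.21), Adamts12 (2.16), Adamts10 (1.85), Adamts9 (1.67) and Adamts14 (1.53). For Adamts5 and Mmp23 the called change was the fall in EpiC allografts. Mmp15 was more negative in CRC, at -2.93. The adjusted p ran over these members from 4.2e-05 for Mmp19 to 0.0477 for Adamts9.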

How the results depend on the processing

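Alternatives were run on the counts of called members and on the called differences of members that reached 5 FPKM, and none of those differences changed sign; other printed differences were not refitted. The calls held in every setting in which the member was tested for 2 of 15 members described for CRC against EpiC cultures, 14 of 17 for CRC allografts against CRC cultures, 2 of 6 for EpiC allografts against EpiC cultures and 8 of 13 for the difference of the changes. A setting whose filter removed a member was not counted for it. Among CRC allografts against CRC cultures this left 15 settings, not 16, for Adamts4, Adamts8, Adamts9, Adamts12 and Mmp15. A filter at 5 FPKM left 11 higher and 1 lower in CRC allografts, 2 lower in EpiC allografts, and 8 higher and 0 lower in the difference, with fewer members tested. Leaving out each replicate in turn gave, for CRC against EpiC cultures, 0 to 2 members higher and 3 to 16 lower. For CRC allografts against cultures it gave 1 to 2 lower, and for EpiC allografts against cultures 2 to 5 higher and 0 to 3 lower. For CRC cultures of cancers against cancers 0 to 2 members were lower (2 without cancer 1, 1 without cancer 2). For EpiC cultures of cancers 0 to 1 were lower (1 without cancer 1, 1 without cancer 2), and without any filter 1 was lower. The cause of these shifts was not tested. With the replicate block, which pairs libraries by cancer, 0 members were called in the 3 comparisons of the second table and 58, 29 and 0 genes in all, against 109, 83 and 1 without it. Numbering the EpiC cultures of the cancers the other way round, an alternative chosen after seeing the data because same-numbered libraries deviated in opposite directions (r = -0.113), gave 0 members and 37 genes in EpiC cultures against cancers. Over all genes tested, leaving out 1 library gave 159 to 2091 calls between the cultures (2741 with every library), 3266 to 5067 for CRC allografts against cultures (4883), 997 to 2200 for EpiC allografts against cultures (1750) 760 to 2243 for the difference of the changes (1506), 0 to 47 for CRC against EpiC allografts (1), 0 to 26 for Brca1hom against Brca1het (0), 44 to 272 for CRC cultures against cancers (109), 0 to 284 for EpiC cultures against cancers (83) and 0 to 12 for CRC against EpiC cultures of cancers (1). Settings for the lists of other genes were added after seeing the data. With no filter these were 1658 between the cultures, and 284 each for CRC and EpiC cultures of cancers against cancers; with the filter at 5 FPKM they were 1154 for EpiC allografts against cultures, 1000 for the difference, and 59 and 43 for CRC and EpiC cultures against cancers. Median-ratio scaling left every count of called members as reported. Depth is unknown, so no limit from counting can be given for members at or near 0. Ratios of low values gave a rough estimate of the FPKM that 1 fragment is worth, relative to CRC allograft 10C. It was 1.60, 1.77 and 4.36 in the CRC cultures and 1.65, 1.34 and 2.42 in the EpiC cultures. In the other CRC allografts it was 0.983 to 1.34, and in the EpiC allografts 0.983 to 1.54. By this estimate values near 0 were coarsest in the Brca1hom CRC culture.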
